A study of Mus musculus with 32 samples.

Results

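The proteasome genes of the mouse lung were taken from the deposited raw count table as the protein-coding rows whose symbol begins with Psma, Psmb, Psmc, Psmd, Psme, Psmf or Psmg and goes on with a digit. The rule found 50 of 35275 genes. By their known roles, 42 are constitutive parts, activators, inhibitors or assembly factors, and 5 (Psmb8, Psmb9, Psmb10, Psme1 and Psme2) belong to the immunoproteasome. Another 2 are restricted to other tissues (Psma8 to male germ cells, Psmb11 to the thymus). The last, Psmc3ip, matches the symbol rule but is no subunit: it encodes a partner of meiotic recombinases.

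The proteasome is the protease that degrades ubiquitin-tagged proteins. Its barrel-shaped core is built of outer rings of alpha subunits and inner rings of beta subunits, of which Psmb5, Psmb6 and Psmb7 carry the cutting sites. A cap, the regulatory particle, binds ubiquitin chains, removes them and threads the substrate into the core with a ring of ATPases. Interferon-gamma is known to induce Psmb8, Psmb9 and Psmb10, which replace Psmb5, Psmb6 and Psmb7 in newly built cores, and Psme1 and Psme2, which form an ATP-independent activator ring. Cores of this kind, the immunoproteasome, are abundant in leukocytes and supply peptides for presentation on MHC class I. In the lung, cigarette smoke is an oxidant exposure, and the proteasome also removes oxidised proteins.

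The data are 32 poly(A) RNA-seq libraries of whole lung from mice labelled C57B/6, in 8 groups that make up 2 separate experiments. Experiment 1 used both sexes without surgery and lasted 5 months: room air was given to males (3 libraries) and to females (3), and cigarette smoke to males (5) and to females (5). Experiment 2 used females only, all of them under cigarette smoke and none in air, and compared ovariectomy with sham surgery after 3 months (3 libraries each) and after 5 months (5 each). Animal ages are not given in the labels, and they name no genetic change. Whether each library is a different animal is not stated either, so the p-values measure the spread between libraries, which may be technical. The study as a whole asked about sex-dependent immune cell lineages in emphysematous lung tissue. Because whole lung was sequenced, a lower level can mean fewer cells of a type or less RNA per cell, and these cannot be told apart.

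Depth ran from 13790052 to 24497332 counts per library. The 6 lung epithelial markers summed to between 109756 and 224605 TPM (transcript counts corrected for gene length and library total) in every library. Some libraries also held RNA of liver genes: Alb exceeded 100 CPM (counts scaled to library total) in 1 of 3 male air, 1 of 3 female air, 2 of 3 ovariectomized 3-month, 2 of 5 sham 5-month and 1 of 5 ovariectomized 5-month libraries. Every called gene given below, and Psmb8 after ovariectomy, was also fitted without these libraries, which leaves fewer libraries in the test. Of the 50 genes, 15 share exonic sequence with another gene of the GENCODE M21 annotation, and whether the counting used strand is not stated. Among them are Psmb8, Psmb9 (with Tap1), Psme1 (with Emc9), Psmb7 (with Nek6) and Psmd13 (with Sirt3), so reads of these genes and their neighbours may not have been told apart.

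Proteasome genes are known targets of the factors Nrf1 and Nrf2 (genes Nfe2l1 and Nfe2l2), which bind antioxidant response elements, and gamma-activated sites are known elements of interferon-gamma target genes. The 250 bases before the RefSeq start (build GRCm38.p6) were searched on both strands for TGACNNNGC, the core of the antioxidant response element, for TTCNNNGAA, the gamma-activated site, and for GAAA, any 2 bases and GAAA again, an interferon-stimulated response element. A promoter was found for 42 of the 50 genes. The antioxidant core lay before 5 of these 42 genes (11.9%), against 11.5% of the promoters of all 27025 genes. The gamma-activated site lay before 2 of 42 (4.76%, against 8.13% of all genes), of which Psmb8 was the 1 immunoproteasome gene among 5. The response element lay before 3 of 42 (7.14%, against 3.46% of all genes), the constitutive genes Psmd4, Psmd9 and Psmb3, and before 0 of the 5 immunoproteasome genes. The stretches of 30 bases around the antioxidant matches and that of Psmb8 are shown because Psmb5 and Psmb6 are catalytic partners that varied together, Psmc6 is the gene that rose with smoke in males, and Psmb8 is the immunoproteasome gene with the lowest p after ovariectomy. Capitals mark the match, and each stretch reads 5′ to 3′ on the strand of its gene.
Psmb5 (chr14:54618023-54618052, minus strand, match 47 bases before the start): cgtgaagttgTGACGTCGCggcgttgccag
Psmb6 (chr11:70525327-70525356, plus strand, match 9 bases before the start): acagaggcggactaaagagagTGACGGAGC
Psmd9 (chr5:123228149-123228178, plus strand, match 31 bases before the start): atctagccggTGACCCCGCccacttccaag
Psmc6 (chr14:45329587-45329616, plus strand, match 227 bases before the start, read on the other strand): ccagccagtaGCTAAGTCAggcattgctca
Psmd12 (chr11:107479278-107479307, plus strand, match 247 bases before the start, read on the other strand): tctGCTGTGTCAcatttgcccccctcagac
Psmb8 (chr17:34198088-34198117, plus strand, gamma-activated site, 97 bases before the start): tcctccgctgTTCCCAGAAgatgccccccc
A match describes the letters only, and these data hold no measure of binding. The Psmb8 stretch lies before the RefSeq start but inside the gene by its deposited coordinates, which begin at 34197721. The other stretches lie before the start by the deposited coordinates as well.

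The level of each gene is given first, in TPM, which corrects for transcript length and so allows genes to be compared. The core subunits were the most abundant. Psmb1, a beta ring subunit without a cutting site (chromosome 17, 15475721 to 15498276), was the highest of the 50, at a mean of 288 TPM over the 32 libraries (range 258.5 to 319.8). The 7 alpha ring genes had means between 80.5 TPM (Psma5) and 227 TPM (Psma2), and the 4 non-catalytic beta ring genes between 134.9 TPM (Psmb2) and 288 TPM (Psmb1). The 3 constitutive catalytic genes were close together, at 153 TPM (Psmb7), 182.5 TPM (Psmb5) and 196.1 TPM (Psmb6).

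The cap genes were lower than the constitutive core genes at both ends of their range. The 6 ATPase genes ran from 44.1 TPM (Psmc2) to 175.7 TPM (Psmc1), and the 11 non-ATPase genes from 48.2 TPM (Psmd11) to 137.6 TPM (Psmd8), although both sets encode subunits of the same particle. Factors that act on assembly were lower: the base chaperones Psmd5, Psmd9 and Psmd10 lay between 22.3 and 29.4 TPM, and the core chaperones Psmg1 to Psmg4 between 3.27 TPM (Psmg3) and 41.3 TPM (Psmg4). The inhibitor gene Psmf1 was at 18.7 TPM, and the nuclear activators Psme3 and Psme4 at 68.4 and 23.9 TPM.

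The lowest genes were those that belong to other tissues. Psmb11, the thymus-specific catalytic subunit, had 0 counts in 30 of 32 libraries, 2 counts in 1 male smoke library and 1 count in 1 female smoke library, and was the member left out of every test by the filter on low counts. A count of 0 allows up to 0.122 to 0.218 CPM (3 counts of the library total). Psma8, the germline alpha subunit, was at 0.64 TPM and had 0 counts in 3 libraries. Psmc3ip was at 5.62 TPM, and Psme2b, a copy of Psme2 that lies within the exons of another gene, was at 13.6 TPM, so its reads are uncertain.

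**Figure D1:**
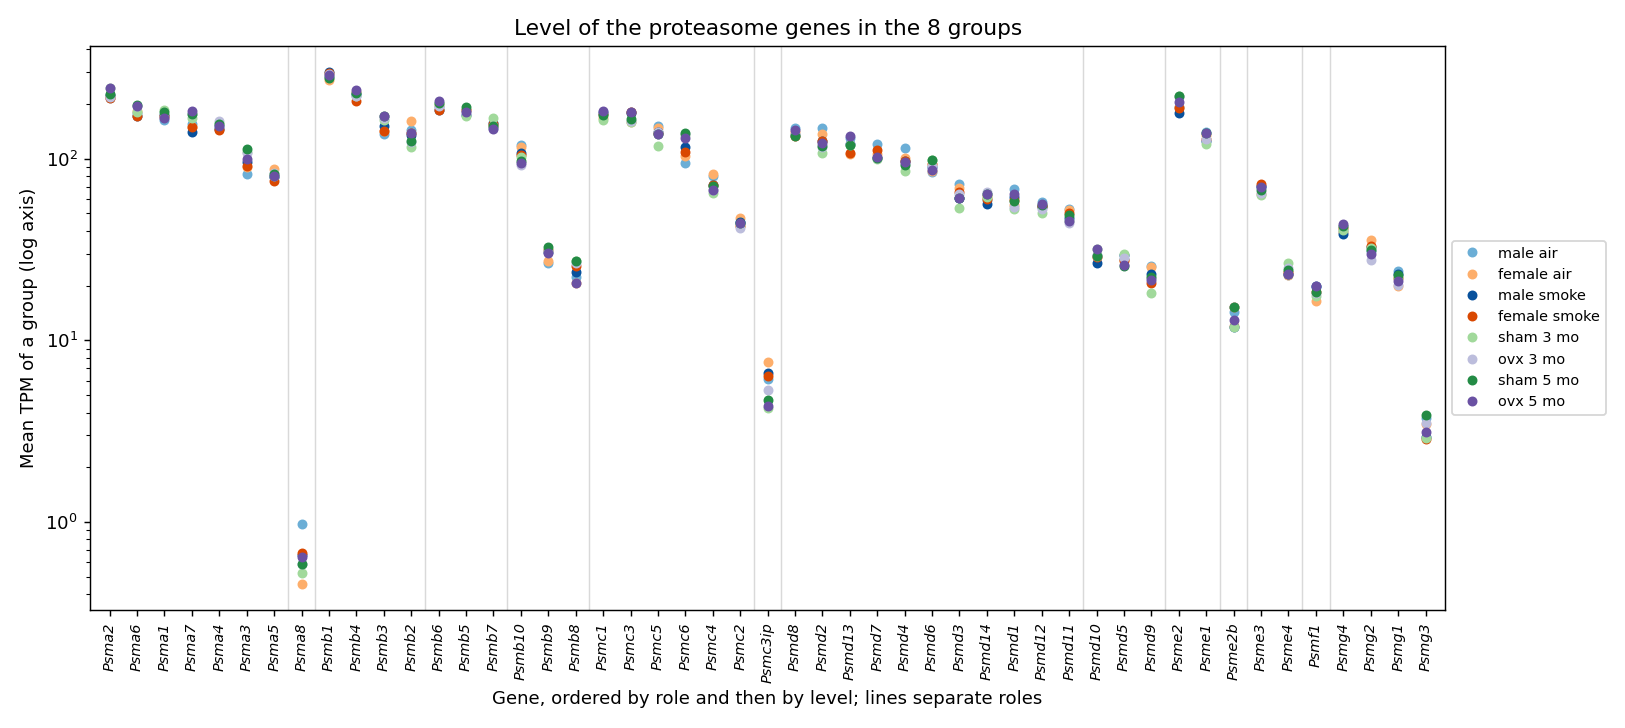
Mean TPM (log axis) of 49 of the 50 genes in each of the 8 groups, ordered by role and, within a role, by mean level, with 1 point per group; Psmb11 is left out because it had counts in only 2 libraries. The points of most genes lie close together, with Psmb1 the highest and Psma8 the lowest of those drawn.

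Immunoproteasome transcripts were detected in every library, air included. Over the 32 libraries Psmb8 had a mean of 24.3 TPM (range 14.9 to 34.3), Psmb9 30.3 TPM (24.4 to 38.8) and Psmb10 103.5 TPM (79.6 to 134). The activator genes were higher, Psme1 at 132.2 TPM (111.7 to 153.9) and Psme2 at 202 TPM (165 to 250.7), the fourth highest of all 50. Psmb8 and Psmb9 were thus far below the catalytic genes they replace, and their ranges did not overlap those of Psmb5 and Psmb6 in these libraries.

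The balance of each immunoproteasome subunit with its partner was set out as a ratio of TPM in each library. Psmb8 to Psmb5 had group means from 0.11 (female air, SD 0.01, n = 3, and ovariectomized 5-month, SD 0.02, n = 5) to 0.16 (sham 3-month, SD 0.017, n = 3). For Psmb9 to Psmb6 the means ran from 0.14 (female air, SD 0.0089, n = 3) to 0.17 (female smoke, SD 0.019, n = 5). The third pair, Psmb10 to Psmb7, ran from 0.61 (sham 3-month, SD 0.098, n = 3) to 0.81 (male air, SD 0.059, n = 3). Male and female air had the highest means for this pair (0.81 and 0.77), and the smoke groups of that experiment were at 0.69 in males (SD 0.092, n = 5) and 0.68 in females (SD 0.04, n = 5). These ratios are given as a description and were not tested.

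The values of Psmb8 by library were 23.7, 19.7 and 23.6 TPM in male air and 21.3, 18.2 and 22.9 TPM in female air. Under smoke they were 22.4, 25.3, 23.0, 23.3 and 24.2 TPM in males and 26.1, 22.9, 21.7, 32.6 and 24.4 TPM in females. The smoke and air libraries overlapped in both sexes, with 1 female smoke library above all the others. In the second experiment the sham 5-month libraries held 27.2, 26.0, 34.3, 24.5 and 25.3 TPM of Psmb8 and the ovariectomized ones 19.3, 28.5, 21.6, 14.9 and 19.2 TPM. Of the 5 ovariectomized libraries 4 lay below every sham library, and 1 lay above 4 of the 5 sham libraries.

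**Figure D2:**
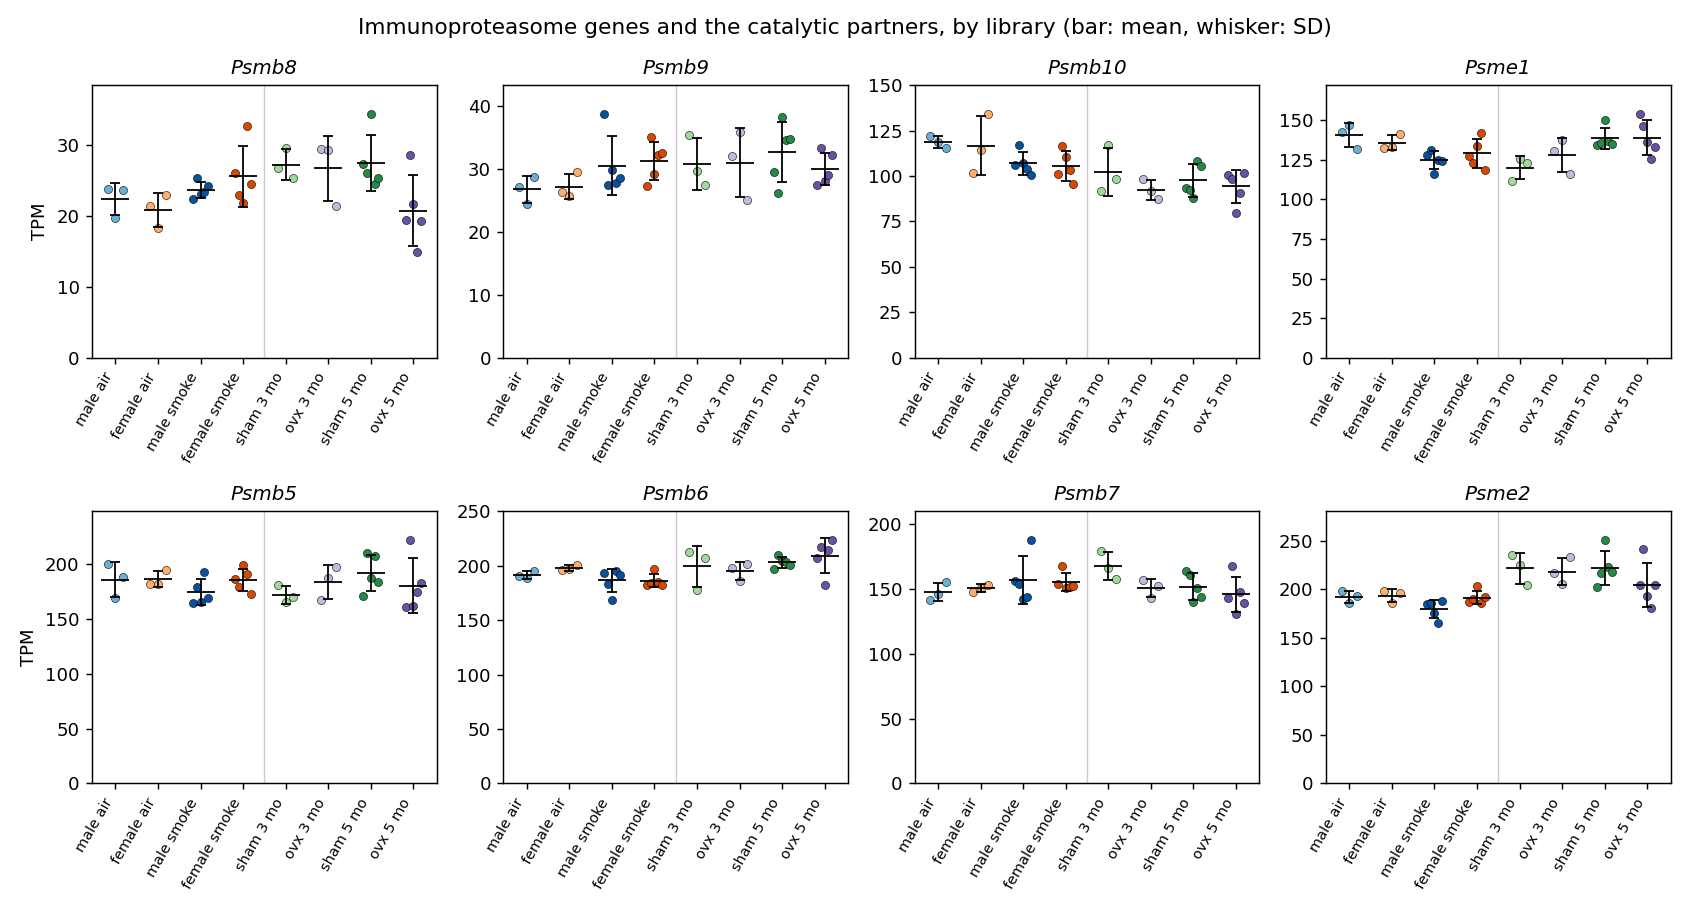
TPM of the 5 immunoproteasome genes and the 3 constitutive catalytic genes in each library (points), with the mean (bar) and SD (whisker) of each of the 8 groups; the vertical line separates the experiments. Psmb8 and Psmb9 stay at or below 38.8 TPM in every library, while Psmb5, Psmb6 and Psmb7 stay at or above 130.8 TPM.

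What smoke does to these genes was asked first in females, with 5 smoke and 3 air libraries. No gene of the 49 tested was called (edgeR's quasi-likelihood test, Benjamini-Hochberg adjusted p under 0.05), where 7.7% of the 16361 genes tested were. At an unadjusted p under 0.05 there were 8, all lower in smoke (16.3%, against 21.3% of all genes), and DESeq2 and limma called 0. Fold changes were small. The median log2 fold change was −0.06, with 16 of 49 above 0, and −0.01 over all genes with 47.9% above 0. In 43 of 49 genes the 95% interval of the log2 fold change lay within ±0.5.

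In this comparison all 7 alpha ring genes and all 3 constitutive catalytic genes had log2 fold changes below 0 in female smoke, the lowest being Psma5 at −0.27 (SE 0.1, adjusted p = 0.110, edgeR). The count of genes above 0 was 22 of 49 on log2(TPM + 1), so the side of 0 depends on the scale for genes this close to it. On log2(TPM + 1) the median was −0.01 for the 49 genes and 0.02 over all genes. The nearest to a call was Psmd9, a chaperone of the ATPase ring, at 22.8, 26.1 and 26.9 TPM in air and 21.6, 19.2, 22.6, 20.4 and 20.03 TPM in smoke (log2 fold change −0.33, SE 0.1, adjusted p = 0.0513, edgeR). All 5 smoke libraries lay below the air libraries. Of the 49 genes 4 lay below and 1 lay above the air libraries without overlap on log2 CPM, the scale of all such counts here, where 14.5% of all genes did not overlap in either direction. Psmb2, a beta ring gene, was at 162.6, 152.1 and 168 TPM in air and 133.9, 140.9, 137.4, 141.1 and 143.2 TPM in smoke (log2 fold change −0.26, SE 0.085, adjusted p = 0.0652, edgeR). Without female air replicate 2, and without the libraries over 100 CPM of Alb, Psmb2 was called, so 1 gene passed in place of 0.

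The immunoproteasome genes differed in sign in female smoke and none was called. Psmb8 had a log2 fold change of 0.24 (95% interval −0.04 to 0.51), Psmb9 of 0.15 (−0.09 to 0.39) and Psmb10 of −0.20 (−0.40 to −0.0013). The interval of Psmb8 does not exclude a rise of 0.5. The activator genes Psme1 (−0.13, interval −0.30 to 0.05) and Psme2 (−0.07, interval −0.23 to 0.10) had intervals within ±0.5.

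In males, 1 of 49 genes was called, Psmc6, which rose with smoke; 10.3% of all genes were called in either direction and 4.93% were higher. Psmc6 encodes an ATPase of the cap (chromosome 14, 45329824 to 45349071). It was at 86.3, 98.6 and 98.7 TPM in the 3 male air libraries and at 117, 108.9, 113.7, 113.1 and 128.3 TPM in the 5 smoke libraries. Every smoke library lay above every air library, a log2 fold change of 0.34 (SE 0.083, 95% interval 0.17 to 0.51, adjusted p = 0.0112, edgeR). The other 5 ATPase genes had log2 fold changes between −0.12 (Psmc4) and 0.03 (Psmc2) and none was called. The call was lost without male air replicate 1 (adjusted p = 0.0882, edgeR), without male air replicate 3 (adjusted p = 0.0617), and without the libraries over 100 CPM of Alb (adjusted p = 0.0828, log2 fold change 0.28), which are male air replicate 1 and female air replicate 2.

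Female libraries held 107.8, 104.6 and 98.0 TPM of Psmc6 in air and 106.3, 107.6, 102.8, 115.9 and 113.4 TPM in smoke, and these overlapped. The difference between the sexes in the smoke effect on Psmc6 was 0.31 (SE 0.12, unadjusted p = 0.0146, adjusted p = 0.786, edgeR), so the test of the difference did not pass. The effects in males and females were therefore not shown to differ. In the second experiment Psmc6 ran from 112.8 to 165 TPM, with both ends in the ovariectomized 3-month libraries.

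The remaining male effects were smaller. Of 49 genes 22 had log2 fold changes above 0 (median −0.01, against 0.01 over all genes), and 6 had an unadjusted p under 0.05 (12.2%, against 23.2% of all genes). Of the 11 non-ATPase genes of the cap 10 were below 0, the lowest being Psmd3 at −0.23 (SE 0.095, adjusted p = 0.131, edgeR). Psmd2, which encodes a scaffold subunit of the cap, was at 137.2, 145.1 and 160.9 TPM in male air and 133.6, 134.9, 124.8, 118.7 and 115.1 TPM in male smoke (log2 fold change −0.20, SE 0.069, adjusted p = 0.071, edgeR). Psmd4, a receptor for ubiquitin chains, was at 110.3, 119.5 and 115.8 TPM in air and 106, 99.9, 101.7, 90.8 and 90.03 TPM in smoke (log2 fold change −0.20, SE 0.072, adjusted p = 0.074, edgeR). The smoke libraries of both genes lay below the air libraries. On log2 CPM 1 of 49 genes lay above and 3 lay below the air libraries without overlap, where 16.8% of all genes did not overlap. DESeq2 called Psmd2 and Psmd4 in addition to Psmc6. Psmd7 was called as well, beside these 3, when all 32 libraries were fitted together.

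**Figure D3:**
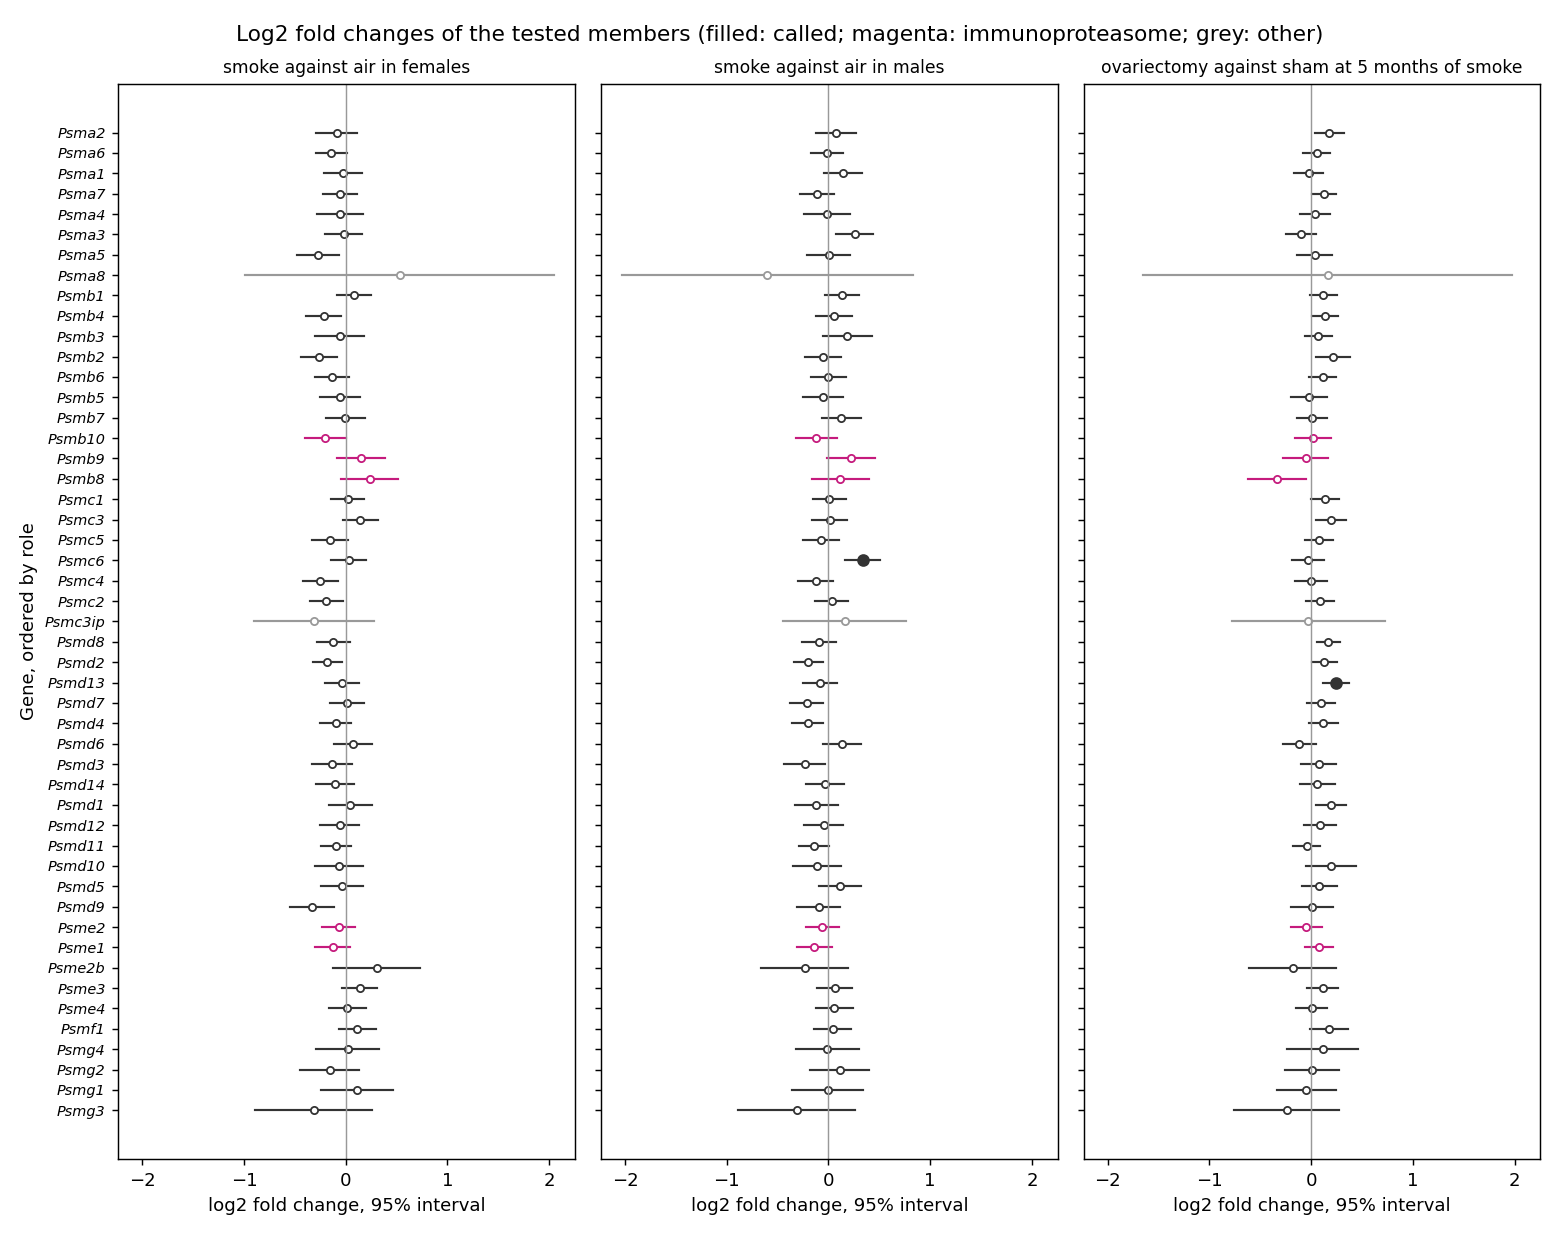
Log2 fold change (point) and 95% interval (line) of the 49 tested genes, ordered by role, for smoke against air in females, smoke against air in males, and ovariectomy against sham at 5 months. Filled points are the called genes, Psmc6 in males and Psmd13 after ovariectomy; magenta marks the immunoproteasome genes and grey Psma8 and Psmc3ip, and most intervals cross 0.

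None of the 5 immunoproteasome genes was called in male smoke, and none had an unadjusted p under 0.05. The log2 fold change was 0.12 for Psmb8 (95% interval −0.16 to 0.40), 0.22 for Psmb9 (−0.02 to 0.46) and −0.12 for Psmb10 (−0.32 to 0.08). The intervals of all 5 genes lay within ±0.5. Psmb9 was at 27.2, 24.4 and 28.7 TPM in male air and 38.8, 27.5, 29.9, 27.9 and 28.7 TPM in male smoke, with 1 smoke library apart from the rest.

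Cell markers moved with smoke beside these genes. All 7 tested erythroid genes rose in female smoke (median log2 fold change 2.54), and 0 of 7 were called in males (median 0.65). The summed erythroid level ran from 10320 to 35812 TPM in male air and from 23367 to 33848 TPM in male smoke. Of 6 endothelial markers 3 fell in females and 5 in males. The test of sex by smoke called 0 of the 7 erythroid and 0 of the 6 endothelial genes. The summed endothelial level ran from 1734 to 2748 TPM in male air and from 1074 to 1438 TPM in male smoke. The summed level of the 8 pan-leukocyte markers ran from 667 to 1210 TPM in female air, 736 to 981 TPM in female smoke, 771 to 873 TPM in male air and 760 to 1023 TPM in male smoke. Of these 8 leukocyte markers 0 were called in females and 1, Tyrobp, rose in males (log2 fold change 0.59, SE 0.14, adjusted p = 0.0108, edgeR). The 7 B and plasma cell genes summed to between 342 and 415 TPM in female air, 454 and 770 TPM in female smoke, 318 and 386 TPM in male air and 430 and 521 TPM in male smoke. Of these, Igj, the joining chain of secreted antibodies, rose in both sexes, with a log2 fold change of 4.04 in females (SE 0.73, adjusted p = 0.0058, edgeR) and 3.35 in males (SE 0.73, adjusted p = 0.0121). Of 6 lung epithelial markers 0 were called in females and 2, Ager and Hopx, rose in males. None of the 10 T and NK cell genes was called in either sex. Of 7 genes used as signs of RNA quality, 3 mitochondrial ones rose in females and 2 in males. The 4 liver genes fell in male smoke, where 1 air library exceeded 100 CPM of Alb. Without the libraries over 100 CPM of Alb, 4 of the 7 erythroid and 2 of the 3 endothelial calls remained in females. In males all 5 endothelial calls, those of Tyrobp, Ager and Hopx, and 3 of the 4 liver calls remained. The mitochondrial calls were lost in both sexes, and Igj kept its call in females (adjusted p = 0.023, edgeR) but not in males (adjusted p = 0.0588). The part of these changes in the values of the proteasome genes was not tested, apart from leaving out the Alb libraries.

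Genes that act on the proteasome but lie outside the symbol rule were given from a list of 19, of which 18 were tested. In each sex 1 rose and 1 fell. Ddi2, the protease that activates Nrf1, fell in both: the log2 fold change was −0.28 in females (SE 0.069, adjusted p = 0.0139, edgeR) and −0.34 in males (SE 0.069, adjusted p = 0.00271). Nfe2l1, which encodes Nrf1, rose in females (0.34, SE 0.084, adjusted p = 0.0158, edgeR) and had a log2 fold change of 0.14 in males (adjusted p = 0.358). Zfand5, an activator of the proteasome, rose in males (0.26, SE 0.066, adjusted p = 0.015, edgeR) and had a log2 fold change of −0.03 in females (adjusted p = 0.845). The test of sex by smoke passed for none of the 3: the adjusted p was 0.982 for Ddi2, 0.879 for Nfe2l1 and 0.748 for Zfand5 (edgeR). Without the libraries over 100 CPM of Alb, Ddi2 kept its call in both sexes and Zfand5 in males, while that of Nfe2l1 was lost (log2 fold change 0.31, adjusted p = 0.0669, edgeR).

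Genes that act on the products of the proteasome, or respond to interferon-gamma, were also listed. Among 11 genes of MHC class I presentation 0 were called in females. In males B2m, the light chain of MHC class I, rose (0.40, SE 0.11, adjusted p = 0.025, edgeR) and the chaperone genes Calr (−0.29, SE 0.079, adjusted p = 0.0214) and Tapbp (−0.27, SE 0.082, adjusted p = 0.0399) fell. Of 13 tested interferon-gamma response genes, the guanylate-binding protein genes Gbp2 (0.59, SE 0.1, adjusted p = 0.000881, edgeR) and Gbp5 (0.73, SE 0.14, adjusted p = 0.00218) rose and the receptor gene Ifngr1 fell (−0.33, SE 0.087, adjusted p = 0.0237) in females. In males 0 of the 13 were called. The test of sex by smoke called 0 of these 13 genes and 0 of the 11 MHC class I genes. The smoke effects on them were therefore not shown to differ between the sexes. Without the libraries over 100 CPM of Alb, Gbp2, Gbp5, Ifngr1 and Calr kept their calls, and those of B2m (log2 fold change 0.39, adjusted p = 0.065, edgeR) and Tapbp (−0.29, adjusted p = 0.0607) were lost.

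Whether males and females differ was asked in smoke (5 against 5 libraries) and in air (3 against 3). In both, edgeR called 0 of 49 genes, where 0.189% of all genes were called in smoke and 0.177% in air. An unadjusted p under 0.05 was reached by 2 genes in smoke (against 7.74% of all genes) and 3 in air (against 9.27%), and DESeq2 and limma called 0. On log2 CPM 0 of 49 genes separated the sexes without overlap in smoke (1.6% of all genes) and 5 did in air (16.7%). Psmd13, a non-ATPase subunit of the cap (chromosome 7, 140881968 to 140898643), was the gene with an unadjusted p under 0.05 in both smoke and air. It was at 127.6, 131.3 and 132.4 TPM in male air and 106.5, 100.5 and 111.4 TPM in female air, without overlap (log2 fold change 0.24, SE 0.09, adjusted p = 0.397, edgeR). Under smoke it was at 133.2, 124.3, 113.6, 113.6 and 116.6 TPM in males and 114.6, 97.9, 108.8, 111.9 and 103.6 TPM in females, where the groups overlapped (0.19, SE 0.07, adjusted p = 0.490, edgeR). Neither difference passed the adjustment over all genes. The test of sex by smoke called 0 of 49 genes (0.00611% of all genes), with 3 at an unadjusted p under 0.05 (Psmc6, Psma3 and Psmb4, against 5.75% of all genes) and 0 by DESeq2 and limma.

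What removal of the ovaries does under smoke was asked at 3 months (3 against 3 libraries) and at 5 months (5 against 5). At 3 months edgeR called 0 of 49 genes, and 0% of all 16874 genes tested; 5 had an unadjusted p under 0.05 (10.2%, against 9.29% of all genes), and DESeq2 and limma called 0. On log2 CPM 6 of 49 genes lay higher after ovariectomy without overlap and 0 lower, where 15.2% of all genes did not overlap. At 5 months 1 of 49 was called, Psmd13, which was higher after ovariectomy, where 1.36% of all genes were called in either direction and 0.587% were higher. Psmd13 was at 111.5, 123.4, 128.1, 120.6 and 107.8 TPM in sham and 130, 133.7, 132.9, 129.7 and 142.3 TPM in ovariectomized libraries. All 5 ovariectomized libraries lay above all 5 sham libraries, as they did for 2 of 49 genes on log2 CPM, where 3.85% of all genes did not overlap (log2 fold change 0.25, SE 0.062, 95% interval 0.12 to 0.38, adjusted p = 0.0469, edgeR). At 3 months it was at 126.3, 123.5 and 109.2 TPM in sham and 128.6, 111.8 and 123.3 TPM in ovariectomized libraries, which overlapped.

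The Psmd13 call lay close to the threshold. Leaving out any library of these groups other than sham replicate 2 ended it, with adjusted p between 0.0608 and 0.131 (edgeR), while the log2 fold change stayed between 0.22 and 0.28. Without the libraries over 100 CPM of Alb (sham replicates 1 and 2 and ovariectomized replicate 5) it was 0.23 (adjusted p = 0.176, edgeR), and on log2(TPM + 1) it was 0.18 (adjusted p = 0.147, limma). Sirt3, whose exons overlap those of Psmd13 on the other strand, was at a mean of 17.4 TPM and had a log2 fold change of −0.09 (SE 0.13, adjusted p = 0.8, edgeR).

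**Figure D4:**
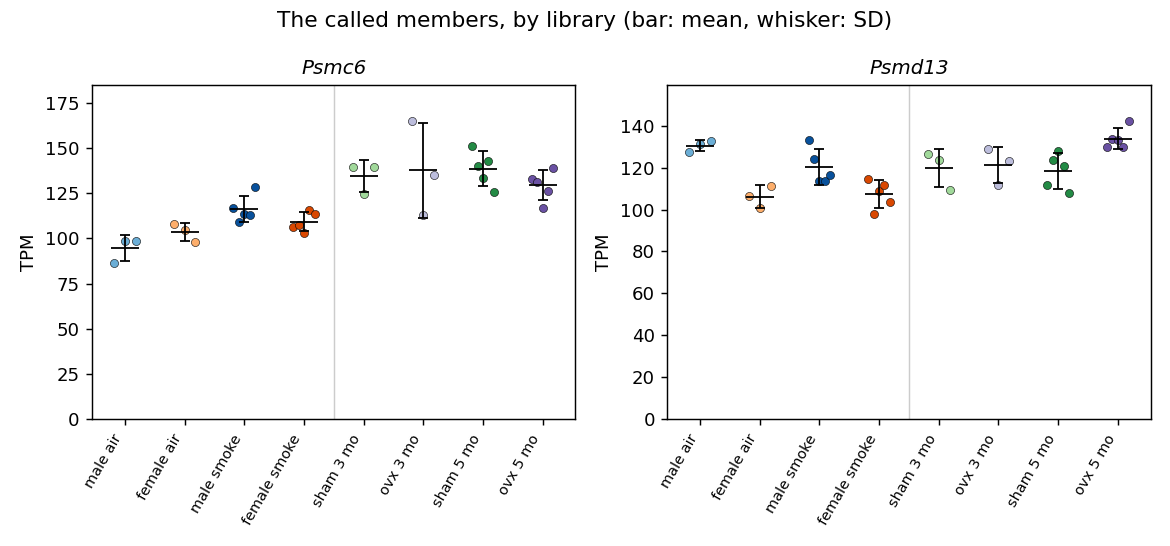
TPM of Psmc6 and Psmd13 in each library (points) with the mean (bar) and SD (whisker) of each of the 8 groups; the vertical line separates the experiments. For Psmc6 the male smoke libraries (108.9 to 128.3) lie above the male air libraries (86.3 to 98.7); for Psmd13 the ovariectomized 5-month libraries (129.7 to 142.3) lie above the sham 5-month ones (107.8 to 128.1).

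After 5 months more proteasome genes lay above than below 0 with ovariectomy: 35 of 49 did on counts (median log2 fold change 0.07, against −0.01 over all genes) and 26 of 49 on log2(TPM + 1). On the latter scale the median was 0.0027 for the 49 genes and −0.08 over all genes. At an unadjusted p under 0.05 there were 9 higher genes and 1 lower (20.4%, against 15.5% of all genes). The lower gene was Psmb8 (log2 fold change −0.34, SE 0.14, 95% interval −0.62 to −0.05, unadjusted p = 0.0221, adjusted p = 0.228, edgeR), whose library values are given above. Without the libraries over 100 CPM of Alb the Psmb8 value was −0.33 (adjusted p = 0.444, edgeR). It depended on single libraries: −0.48 without ovariectomized replicate 2 (adjusted p = 0.0591, edgeR) and −0.24 without ovariectomized replicate 4 (adjusted p = 0.405). Among the higher ones was Psmd8, a cap gene at 130.7 to 138.6 TPM in sham and 131.8 to 149.0 TPM in ovariectomized libraries (0.17, SE 0.055, adjusted p = 0.122, edgeR), where the TPM overlapped and which DESeq2 called together with Psmd13. The other immunoproteasome genes had log2 fold changes between −0.05 (Psmb9) and 0.08 (Psme1). Of the 13 tested interferon-gamma response genes, 11 MHC class I genes, 18 proteasome control genes and 8 leukocyte markers 0 were called at 5 months, and 1 of 7 RNA quality genes, mt-Co1, rose (0.36, SE 0.079, adjusted p = 0.0268, edgeR, and 0.0401 without the Alb libraries).

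The length of smoke exposure was compared within each surgery group, with 5 libraries at 5 months against 3 at 3 months. In sham mice edgeR called 0 of 49 genes (0.00593% of all genes), with 7 at an unadjusted p under 0.05, all higher at 5 months (14.3%, against 8.65% of all genes). Ovariectomized mice gave 0 called as well (0.0178% of all genes), with 7 higher at an unadjusted p under 0.05 (14.3%, against 9.83%). DESeq2 and limma called 0 in both. On log2 CPM 5 of 49 genes lay higher at 5 months without overlap in sham (7.18% of all genes did not overlap) and 2 in ovariectomized mice (5.54%). The median log2 fold change of the 49 genes was 0.09 in sham, with 40 above 0 (37 on log2(TPM + 1)), and 0.07 in ovariectomized mice, with 36 above 0 (27 on log2(TPM + 1)). All genes had medians of 0.0018 and −0.01 on counts, and of −0.02 and −0.06 on log2(TPM + 1). The medians of the 49 genes on log2(TPM + 1) were 0.06 and 0.02.

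Psme1, an activator gene of the immunoproteasome, was among those 7 in both surgery groups, as was the cap gene Psmd1. It was at 111.7, 125.4 and 123.1 TPM in sham mice at 3 months and at 134.4, 135.9, 150.3, 136.8 and 135.1 TPM at 5 months, without overlap (log2 fold change 0.23, SE 0.079, adjusted p = 0.361, edgeR). In ovariectomized mice it was at 130.3, 137.6 and 116.1 TPM at 3 months and 153.9, 146.2, 136.3, 125.3 and 133.3 TPM at 5 months, where the libraries overlapped (0.17, SE 0.078, adjusted p = 0.490, edgeR). Neither passed the adjustment. The test of surgery by time called 0 of 49 genes and 0% of all genes, and 0 by DESeq2 and limma. At an unadjusted p under 0.05 (edgeR) there was 1 gene, Psma2 (2.04%, against 5% of all genes).

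How far these genes vary between libraries of the same group was measured as the SD of log2 CPM within groups. The median SD of the 49 genes was 0.12, against 0.22 over all 17361 genes tested in the 32 libraries together and 0.12 over the 2681 genes between the lower and upper quartiles of the proteasome genes' mean level. The low spread of the proteasome genes was thus that of genes at their level. The steadiest was Psmd2 (SD 0.072, below which 0.697% of all genes lay), and the most variable were Psma8 (1.04) and Psmc3ip (0.55), which with Psmg3 are the 3 lowest-expressed genes tested. Among the 5 immunoproteasome genes the median SD was 0.14, with Psmb8 the most variable at 0.22.

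Subunits of the core varied together from library to library. Each value was centred on the mean of its group, so that group differences do not enter. Over the 32 libraries the median Pearson r between pairs of the 14 constitutive core genes was 0.48 (91 pairs, range 0.11 to 0.79). It was 0.50 within the alpha ring (21 pairs) and 0.38 among the 5 immunoproteasome genes (10 pairs, range 0.12 to 0.62). Pairs of the 6 ATPase genes had a median r of 0.16 (15 pairs, range −0.13 to 0.44) and pairs of the 11 non-ATPase genes 0.26 (55 pairs, range −0.32 to 0.68). All pairs among the 2681 genes of like level had a median of 0.02. The pairs share their libraries, and so their depth and RNA quality, and the genes are not independent replicates.

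The 8 catalytic and activator genes were then set against 50 genes of the lists for interferon-gamma response, MHC class I presentation, leukocytes and proteasome control, in 400 relations with permutation of libraries within groups (100000 resamples, two-sided) and Benjamini-Hochberg adjustment over the 400. Psmb9 and its neighbour Tap1, a peptide transporter gene of MHC class I presentation, gave a relation that did not pass (r = 0.55, rho = 0.52, raw permutation p = 0.00446 for r, adjusted p = 0.111). None of the 40 relations between immunoproteasome genes and pan-leukocyte markers passed (median r −0.03).

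Of the 3 constitutive catalytic genes, Psmb7 and Psmb5 passed on both measures with Pomp, and Psmb6 did not (r = 0.65, raw permutation p = 0.0028, adjusted p = 0.0862; rho = 0.67, raw permutation p = 0.00092, adjusted p = 0.046). Psmb7 was related to Pomp, the chaperone that matures the core (r = 0.72, raw permutation p = 0.00015, adjusted p = 0.02; rho = 0.65, raw permutation p = 0.00037, adjusted p = 0.0247). The value without the 2 libraries farthest from the median of Psmb7 was 0.59, and r was 0.74 in the first and 0.70 in the second experiment. In each relation given here and below, the 2 farthest libraries were chosen by the catalytic or activator gene alone. Psmb7 was also related to Shfm1, a small subunit of the cap (r = 0.72, raw permutation p = 2e-05, adjusted p = 0.008; rho = 0.70, raw permutation p = 7e-05, adjusted p = 0.014; 0.68 without the 2 farthest libraries, and 0.65 and 0.81 in the 2 experiments). Psmb5 was related to Pomp (r = 0.66, raw permutation p = 0.00097, adjusted p = 0.0485; rho = 0.68, raw permutation p = 0.00025, adjusted p = 0.0247; 0.64 without the 2 farthest libraries, and 0.61 and 0.76 in the 2 experiments).

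Another 3 relations that passed on both measures involved Psme2, Psmb10 and Psmb7. Psme2 rose with Pomp (r = 0.68, raw permutation p = 0.00029, adjusted p = 0.0232; rho = 0.66, raw permutation p = 0.00064, adjusted p = 0.0366; 0.63 without the 2 farthest libraries, and 0.88 and 0.53 in the 2 experiments). Psmb10 was inversely related to AI314180, also known as Ecpas, a scaffold protein of the proteasome (r = −0.71, raw permutation p = 0.00023, adjusted p = 0.023; rho = −0.71, raw permutation p = 0.00014, adjusted p = 0.0187; −0.69 without the 2 farthest libraries, and −0.69 and −0.73 in the 2 experiments). Psmb7 was inversely related to the kinase gene Jak1 (r = −0.63, raw permutation p = 0.00039, adjusted p = 0.026; rho = −0.65, raw permutation p = 0.00037, adjusted p = 0.0247; −0.58 without the 2 farthest libraries, and −0.76 and −0.46 in the 2 experiments). These 6 relations kept their sign in both experiments. Depth and RNA quality are shared by both genes of a pair, and their part in these relations was not tested.

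**Figure D5:**
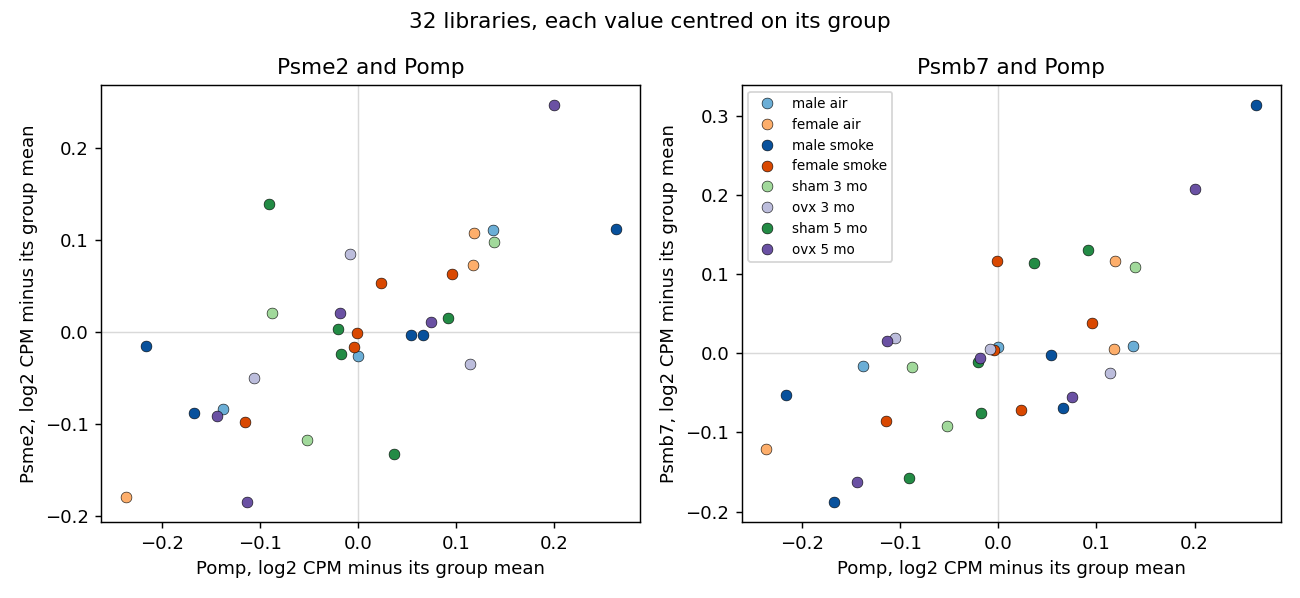
Psme2 against Pomp and Psmb7 against Pomp in 32 libraries, each value as log2 CPM minus the mean of its group, coloured by group. Both pairs rise together (r = 0.68 and r = 0.72), and for Psmb7 and Pomp 2 libraries, 1 of male smoke and 1 of ovariectomized 5-month mice, lie at the upper right end.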

How the data were processed

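Whole lungs were sequenced as poly(A) RNA, with Trizol isolation and a NEBNext Ultra 2 kit per the labels' protocols. The deposited tables hold whole-number raw counts per gene and TPM; the TPM unit was read from the values, of which 100% equal the count over the deposited gene length, rescaled per library, within a relative tolerance of 1e-06. FastQC and the builds GRCm38 and mm10 are named per the submitters' processing notes, while for the aligner and counter nothing is given in the sources used. Columns were mapped to libraries by their labels.

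Counts of the 4 groups of an experiment were fitted together in R 4.3.3 with edgeR 4.0.16: filterByExpr (16361 and 16874 genes kept), TMM scaling, a mean for each group, and the quasi-likelihood F test with robust dispersions. A gene was called at a Benjamini-Hochberg adjusted p under 0.05 over all genes, and 95% intervals use the model's SE. Levels are TPM; log2 CPM used a prior count of 2. The depth per library, and 3 or 5 libraries per group, set the precision. No 2 libraries of a group were near-copies (lowest chi-square per degree of freedom 8.99).

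Alternatives were RLE scaling, no filter, a block for the replicate number, 1 fit to all 32 libraries or to only the compared groups, DESeq2 1.42.0, limma-trend 3.58.1 on log2(TPM + 1) with a pseudocount of 1, and leaving out each library. Leaving out libraries over 100 CPM of Alb was added after seeing the data. The procedure was tested on simulated data. Plots used Python 3.11.15 and matplotlib 3.10.9.

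The members and lists were chosen with earlier results of these data known. Named with values were the 5 immunoproteasome genes, their 3 partners, all called genes, the highest and lowest genes, Psmc3ip, and up to 4 called genes per list. Also named, after their values were seen, were Psma5, Psmd9, Psmb2, Psmd2, Psmd3, Psmd4, Psmd7, Psmd8, and the genes with an unadjusted p under 0.05 in both sexes or surgery groups or in an interaction. Some results for listed genes are not reported here.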

Additional observations from a re-analysis of the deposited data

Results flagged for a closer look

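In groups of 5 libraries, a library whose gap to its nearest neighbour is over 0.710 of the group's range (Dixon's critical value) was listed, in 48 sets of values for 12 genes; chance gives about 1 in 20. There were 6. Psmb8 was at 34.3 TPM in sham 5-month replicate 3, where the others lay between 24.5 and 27.2, and Psme1 was at 150.3 TPM in the same library, with the others between 134.4 and 136.8. Psmb9 was at 38.8 TPM in male smoke replicate 1 (others 27.5 to 29.9). In female smoke, Psmb6 was at 196.6 TPM in replicate 3 (others 182 to 184.8), Psmb7 at 167.4 TPM in replicate 2 (others 150.7 to 153.5), and Psmc3ip at 10.7 TPM in replicate 1 (others 4.52 to 6.29).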

How the results depend on the processing

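Under the alternatives 147 counts of called genes were within 1.5 times the value reported and 26 were not, and no result reversed. The 147 include every count of the 7 comparisons that stayed at 0. All 26 fell in smoke in males, smoke in females and ovariectomy at 5 months, where the calls did depend on the processing. For smoke in males (1 called) the count was 3 with DESeq2, 4 with all 32 libraries in 1 fit, 0 without the libraries over 100 CPM of Alb and 0 to 2 when each library was left out. For smoke in females (0 called) it was 1 with all 32 libraries in 1 fit (Psmd9, lower), 1 without the Alb libraries (Psmb2, lower) and 0 to 1 when each library was left out. After ovariectomy at 5 months (1 called) it was 2 with DESeq2, 0 without a filter, 0 with the replicate block, 0 with limma on log2(TPM + 1), 0 with only the groups compared, 0 without the Alb libraries and 0 to 1 when each library was left out. The causes were not tested. The other 7 comparisons stayed at 0 under every alternative run. Libraries with the same replicate number did not deviate together (correlations between −0.276 and 0.183). With so few libraries in a group, these correlations cannot exclude that the numbers pair libraries by design. With the replicate block Psmc6 in males kept its call (adjusted p = 0.0443, edgeR). Psmd13 after ovariectomy at 5 months lost its call (adjusted p = 0.072, edgeR). With 3 or 5 libraries a group, the spread between libraries limits which small changes can be called, and for Psma8, Psmc3ip and Psmg3 depth does so too. Calls were made at log2 fold changes of 0.25 (Psmd13) and 0.34 (Psmc6), while Psmb8 after ovariectomy at 5 months was not called at −0.34.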
